A study of Mus musculus with 4 samples.

Results

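The 10 genes described here encode the sodium chloride cotransporter of the distal convoluted tubule, the kinases and ubiquitin ligase parts that control it, and the magnesium channel, calcium-binding protein and potassium channel subunits known from the same cells: Slc12a3, Wnk1, Wnk4, Klhl3, Cul3, Stk39, Trpm6, Pvalb, Kcnj10 and Kcnj16. They were taken by symbol from the per-library read tables, where all 10 were found among 38924 listed genes, and all 10 had enough reads to be tested. Kidneys came from female CB-17 SCID mice, a Balb/c-background strain without functional B and T cells, whose ages are not stated. Saline (2 libraries) or preformed immune complexes (2 libraries), made of galactose-deficient IgA1, an autoantigen in IgA nephropathy, and the IgG autoantibody against it, were given by tail vein in 3 doses over 7 days, and kidneys were collected 1 day after the final dose. Each library was made from total RNA of a piece of kidney, so its reads mix cell types. Fewer cells of a type cannot be told apart from less RNA per cell. The labels do not say which part of the kidney was taken, so the share of each nephron segment is not known. The labels do not say that each library came from its own animal, and the spread that the p-values measure may be technical.

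The distal convoluted tubule takes up sodium chloride through the thiazide-sensitive cotransporter, the product of Slc12a3. The kinases WNK1 and WNK4 activate SPAK, the product of Stk39, which phosphorylates and activates the cotransporter. KLHL3 brings WNK kinases to a cullin 3 ubiquitin ligase for breakdown, and the basolateral potassium channel of KCNJ10 and KCNJ16 sets the cell's chloride and through it WNK activity. Mutations in this set cause Gitelman syndrome, familial hyperkalaemic hypertension, magnesium wasting and EAST syndrome.

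Upstream sequence is shown for 3 of the genes, chosen by profile over the 4 libraries. In total gene reads, intron reads included, Slc12a3 and Pvalb took nearly the same profile and Cul3 the opposite one. On exon reads Slc12a3 and Pvalb moved in opposite directions between the saline libraries, as given further on. All 10 genes were matched in the RefSeq promoter table (GRCm38.p6), with 14 start sites in all. Each line gives the 250 bases before the start site, 5′ to 3′ on the gene's strand, and capitals mark each CG and each TATAAA. The windows are chr8:94328958-94329207 (plus strand) for Slc12a3, chr15:78206401-78206650 (minus strand) for the first of 2 Pvalb starts, and chr1:80340691-80340940 (minus strand) for Cul3.
Slc12a3: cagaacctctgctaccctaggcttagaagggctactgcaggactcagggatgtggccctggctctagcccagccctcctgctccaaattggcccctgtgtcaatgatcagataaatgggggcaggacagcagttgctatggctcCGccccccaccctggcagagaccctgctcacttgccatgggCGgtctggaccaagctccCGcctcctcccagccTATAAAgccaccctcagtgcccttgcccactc
Pvalb: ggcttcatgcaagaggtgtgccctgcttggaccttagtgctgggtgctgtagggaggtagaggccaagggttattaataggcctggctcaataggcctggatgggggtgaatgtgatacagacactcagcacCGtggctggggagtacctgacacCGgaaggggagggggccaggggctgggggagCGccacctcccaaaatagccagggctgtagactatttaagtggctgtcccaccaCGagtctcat
Cul3: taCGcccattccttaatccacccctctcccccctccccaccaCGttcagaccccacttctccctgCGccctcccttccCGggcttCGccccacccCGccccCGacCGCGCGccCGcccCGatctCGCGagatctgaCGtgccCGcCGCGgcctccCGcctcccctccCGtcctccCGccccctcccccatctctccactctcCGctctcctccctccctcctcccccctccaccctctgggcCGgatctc
The Slc12a3 window holds 3 CG pairs and the printed Pvalb window 4, against 23 in Cul3 and a median of 6 over 32851 RefSeq windows of the same length. The window of the other Pvalb start holds 23 as well, so any contrast of Pvalb with Cul3 depends on the start taken. Slc12a3 has a TATAAA whose first base lies 32 bases before the start; 1.99% of all windows hold that motif on the coding strand wholly between 40 and 16 bases before the start. On both strands and anywhere in the 250 bases, TATAAA is present in 12.4% of windows. Among the other kinases and channel genes the CG count was 43 in Stk39, 26 in Wnk1, 17 in Wnk4 and 17 in Kcnj10, and it was 6 in Klhl3 and 7 in Trpm6. The 4 start sites of Kcnj16 had 3, 7, 4 and 1 CG pairs, and 1 of these windows holds a TATAAA, which starts 133 bases before the start site. These matches describe letters only. RefSeq starts and the gene bounds in the read tables differ for several genes. The RefSeq start lies 16 bases inside Slc12a3, 210 bases before Cul3 and 55 bases before Klhl3, and those of Wnk1 and Trpm6 differ as well. By the read table bounds the Stk39 window lies wholly inside the gene. So do the windows of the other Pvalb start and of the later Kcnj16 starts.

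None of the 10 genes was called between the groups: no difference between saline and immune complex kidneys passed the test, and for 5 of them the immune complex libraries lay on either side of both saline libraries. The test was edgeR's quasi-likelihood fit over all 16334 genes with enough reads, at a Benjamini-Hochberg adjusted p of 0.05. It called 0 of the 10, against 0% of all genes tested, and the adjusted p was 0.99997 for each. At an unadjusted p under 0.05 there were 0 of the 10, against 749 of all genes (4.59%, with 1.98% higher and 2.60% lower after immune complex). DESeq2 called 93 genes (0.544%) on the same reads and again 0 of the 10. In the authors' deposited table, which calls 80 of 16128 genes (0.496%), 0 of the 10 are called. The groups did not overlap for 1 of the 10, against 30.0% of all genes tested (15.4% higher, 14.6% lower). The median log2 fold change of the 10 was 0.17, with 7 higher and 3 lower estimates, and it was 0.01 over all genes tested. The 95% intervals of the 10 reached from a fold of 0.595 to a fold of 1.72, so a change within a gene's interval is not excluded. These intervals are not adjusted for the number of genes tested. They do not give the size of change that the test would call with 2 libraries a group.

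**Figure D1:**
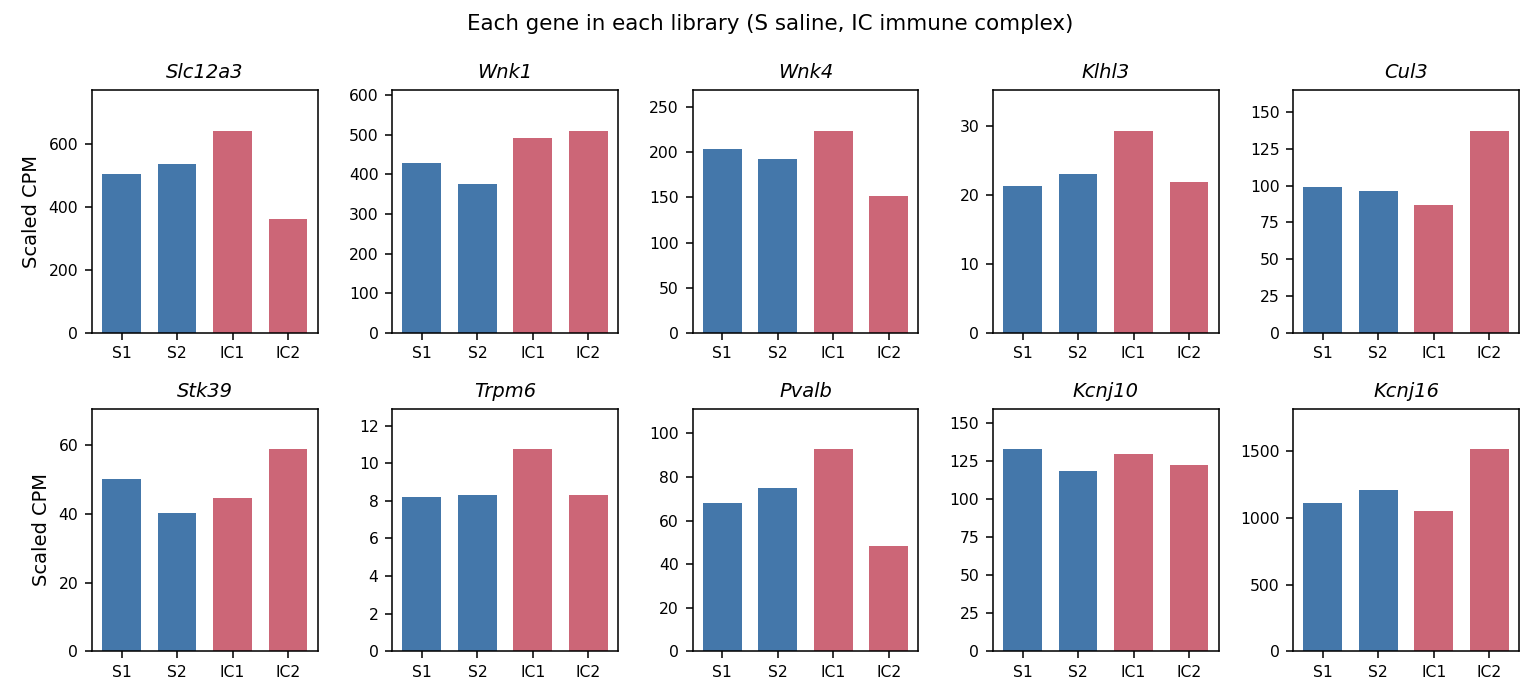
Level in CPM (vertical axis from 0) of each of the 10 genes in saline libraries 1 and 2 (S1, S2) and immune complex libraries 1 and 2 (IC1, IC2), 1 bar per library. Slc12a3, Wnk4 and Pvalb are highest in IC1 and lowest in IC2, Cul3 and Kcnj16 the reverse, and Wnk1 alone has both immune complex bars above both saline bars.

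Slc12a3 (chr8:94329192-94366213, plus strand) encodes the cotransporter itself. The saline libraries gave 505.1 and 538.6 CPM (reads relative to the TMM-scaled library total), and immune complex libraries 1 and 2 gave 644.2 and 362.8 CPM. The saline pair lay close together, and the immune complex pair fell on either side of it. Of all genes tested, 68.3% were closer in the saline than in the immune complex pair. Over these tested genes the median absolute log2 difference was 0.17 in the saline pair and 0.35 in the immune complex pair. The log2 fold change was -0.05 ± 0.28 (SE; 95% interval -0.73 to 0.63). Leaving out immune complex library 2 gave 0.30 and leaving out library 1 gave -0.52, so its direction rests on which of these libraries is kept.

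Of the 4 other genes with immune complex libraries on either side of both saline libraries, Wnk4 and Pvalb followed Slc12a3. That placing was seen for 33.5% of all genes tested, 16.8% with library 1 above and 16.6% with library 2 above. Wnk4 (chr11:101260567-101277409, plus strand), the WNK kinase most tied to this segment, had 203.1 and 192.3 CPM after saline, against 223.9 and 151.7 CPM after immune complex, a log2 fold change of -0.07 ± 0.23. Pvalb (chr15:78191114-78206400, minus strand), whose product parvalbumin buffers calcium in the early part of the segment, had 68.2 and 74.9 CPM after saline, against 92.8 and 48.3 CPM after immune complex. Its log2 fold change was -0.02 ± 0.30, with 0.38 when immune complex library 2 was left out and -0.57 when library 1 was. Wnk4 likewise moved from 0.18 to -0.38 between these settings, and it was 0.04 once a GC trend, described further on, was removed. Parvalbumin is also a protein of fast muscle. In saline 1, saline 2, immune complex 1 and immune complex 2, Acta1 had 0, 0, 0 and 1 reads and Myh4 had 0, 0, 0 and 3. Ckm had 22, 11, 7 and 7 reads, of which 81.8% to 100% were in introns. The summed level of 9 muscle genes was 3.58 to 9.69 CPM, of which Myh1, with 45 to 173 reads, held the largest part. The part of muscle in the Pvalb reads was not tested.

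The kinase genes Wnk1 and Stk39 did not share that profile. Wnk1 (chr6:119923969-120038672, minus strand) had 429.5 and 376.2 CPM after saline, against 490.8 and 510.3 CPM after immune complex. Both immune complex libraries were above both saline libraries, a placing that 15.4% of all genes tested shared. The log2 fold change was 0.31 ± 0.18 (95% interval -0.11 to 0.74, unadjusted p = 0.124), the largest estimate and the lowest p among the 10 genes, and it ranged from 0.21 to 0.41 when single libraries were left out. The kidney makes mostly a short WNK1 without the kinase domain from an internal start, and reads per gene do not separate the forms. Stk39 (chr2:68210445-68472268, minus strand), which encodes SPAK, had 50.3 and 40.3 CPM after saline, against 44.7 and 58.9 CPM after immune complex. The groups overlapped, with a log2 fold change of 0.19 ± 0.21 that became -0.02 when immune complex library 2 was left out and 0.03 when saline library 2 was.

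Klhl3 and Cul3, partners in the ligase that removes WNK kinases, differed in opposite ways within the immune complex pair. Klhl3 (chr13:58004221-58113592, minus strand), the adaptor, had 21.3 and 23.0 CPM after saline, against 29.4 and 21.9 CPM after immune complex, a log2 fold change of 0.21 ± 0.21. Cul3 (chr1:80264923-80340480, minus strand), the scaffold, had 99.2 and 96.3 CPM after saline, against 86.5 and 137.3 CPM after immune complex, a log2 fold change of 0.20 ± 0.25. For both the groups overlapped. Leaving out immune complex library 1 gave -0.02 for Klhl3 and 0.49 for Cul3, and leaving out library 2 gave 0.40 and -0.18. Per exon length, the ratio of Klhl3 to Cul3 was 0.271 and 0.302 after saline, against 0.408 and 0.198 after immune complex.

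Trpm6 (chr19:18749983-18892510, plus strand), the apical magnesium channel, was the gene with the fewest reads, 167 to 240 per library. It had 8.21 and 8.33 CPM after saline, against 10.8 and 8.32 CPM after immune complex, so library 1 alone was high. Its log2 fold change was 0.21 ± 0.24, or 0.009 when immune complex library 1 was left out and 0.38 when library 2 was.

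Of the basolateral potassium channel subunits, Kcnj10 was the steadiest of the 10 genes. Kcnj10 (chr1:172341210-172374085, plus strand), the KIR4.1 subunit, had 133.2 and 118.6 CPM after saline, against 130.0 and 122.8 CPM after immune complex. Its log2 fold change was 0.01 ± 0.17, with the narrowest interval (-0.41 to 0.42), and the sign turned under several settings. Kcnj16 (chr11:110968033-111027968, plus strand), the KIR5.1 subunit that pairs with it, had 1115 and 1210 CPM after saline, against 1053 and 1518 CPM after immune complex. The log2 fold change was 0.15 ± 0.22, with -0.14 when immune complex library 2 was left out and 0.39 when library 1 was.

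**Figure D2:**
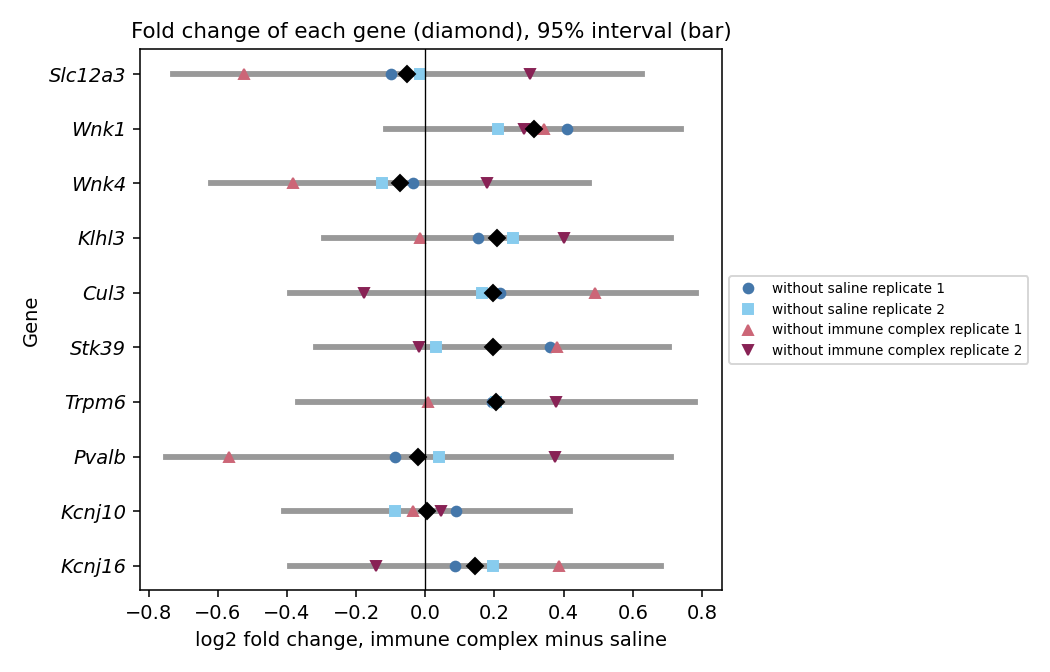
Log2 fold change of immune complex over saline (horizontal axis) for each gene, with black diamonds for all 4 libraries, grey bars for the 95% interval and coloured marks for fits that leave out 1 library. Every grey bar crosses 0, and leaving out either immune complex library moves Slc12a3, Pvalb, Wnk4, Cul3 and Kcnj16 to opposite sides of 0. The same holds by a narrow margin on 1 side for Klhl3 and Stk39, and by a narrow margin on both sides for Kcnj10.

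Compared per length, the 10 genes covered a wide range, and their order was the same in 3 of 4 libraries. On the RPKM scale that the authors deposited (exon reads scaled to exon length and to the library total), Kcnj16 stood at 309.1 ± 48.5 (mean ± SD over all 4 libraries), Slc12a3 at 112.0 ± 23.7, Pvalb at 66.8 ± 17.0 and Wnk4 at 43.3 ± 7.29. Wnk1 at 27.6 ± 3.26, Kcnj10 at 23.3 ± 1.57 and Cul3 at 21.1 ± 4.28 came next, and their ranges overlapped. Stk39 at 9.06 ± 1.55, Klhl3 at 5.97 ± 0.690 and Trpm6 at 1.15 ± 0.178 closed the order. Neighbouring ranges also overlapped between Slc12a3 and Pvalb and between Pvalb and Wnk4, although within each library Slc12a3 was above Pvalb and Pvalb above Wnk4 in 4 of 4. Exon length here is the union of all annotated exons, 15780 bases for Wnk1 with its 23 annotated transcripts, so the level of a gene with many forms is understated. In the same unit, 99.2% of genes tested were below Kcnj16, 97.2% below Slc12a3 and 28.9% below Trpm6.

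The ratio of Wnk4 to Slc12a3 RPKM was 0.375, 0.380, 0.381 and 0.424 in saline 1, saline 2, immune complex 1 and immune complex 2, and that of Pvalb to Slc12a3 was 0.518, 0.623, 0.667 and 0.571. The ratio of Klhl3 to Slc12a3 was 0.0439, 0.0519, 0.0543 and 0.0691, a wider spread than that of the Klhl3 level itself. The ratio of Kcnj16 to Kcnj10 ran from 11.1 to 17.0. Kcnj16 is also made in the proximal tubule and other segments, so its reads here are not a measure of the distal convoluted tubule alone.

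Of the 10 genes, Slc12a3 had the highest share of intron reads in each of the 4 libraries. Intron reads made up 18.9% and 30.3% of its reads in saline and 33.0% and 27.4% in immune complex kidneys (Wilson 95% intervals 18.2 to 19.7, 29.5 to 31.1, 32.2 to 33.7 and 26.4 to 28.4, covering counting error only). The median over genes tested was 4.65% to 6.77% per library, and 75.6% to 79.8% of genes tested lay below Slc12a3. Saline library 1 was the low one, and the other 3 libraries included both groups. Split by kind of read, Slc12a3 exon reads came to 409.5, 375.5, 431.8 and 263.5 CPM in the same order of libraries, and its intron reads to 95.6, 163.1, 212.4 and 99.2 CPM. The excess of immune complex library 1 over saline library 1 was therefore mostly in intron reads, and on the RPKM scale, which uses exon reads, these libraries stood at 127.8 and 127.9. Immune complex library 2 stayed lowest on exon reads, with an RPKM of 77.8. Tested on exon reads, the log2 fold change of Slc12a3 was -0.15. GENCODE M21 places no other gene inside Slc12a3, and nearly all of its reads (at least 99.97%) were placed at 1 location.

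Among the other genes, intron reads were 14.8% to 19.5% for Klhl3, 9.58% to 23.3% for Trpm6, 5.48% to 10.1% for Stk39 and 5.09% to 7.72% for Wnk4. They were under 4% for Wnk1 (a mean of 3.51%, or 1.33% over uniquely placed reads) and Cul3, 1.70% to 2.32% for Pvalb and at most 0.517% for Kcnj10 and Kcnj16, whose coding sequence lies in a single exon. GENCODE M21 lists small genes within Wnk1, Wnk4, Klhl3, Cul3 and Trpm6, and those that the tables also list had at most 2 reads.

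**Figure D3:**
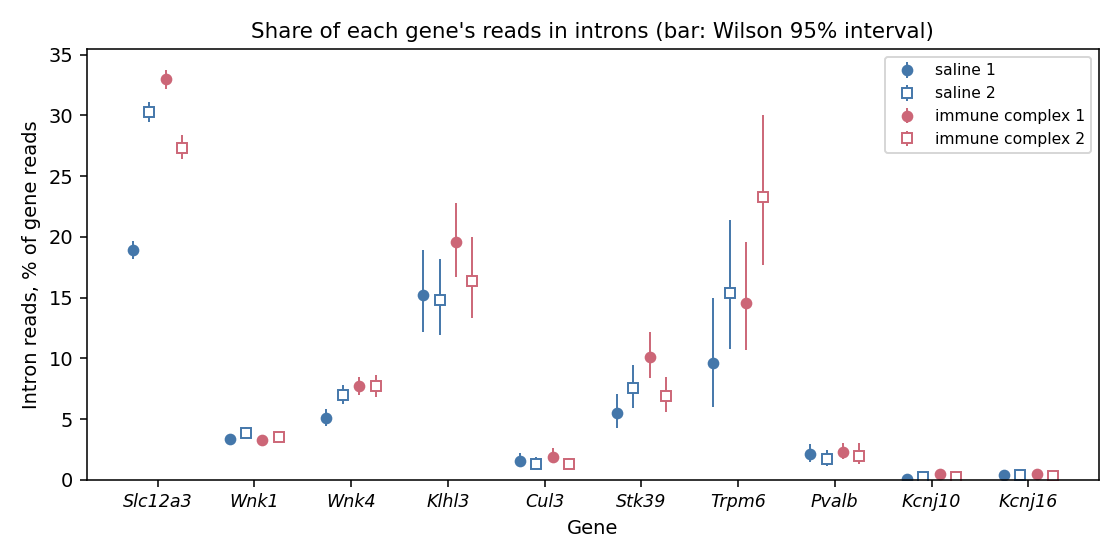
Intron reads as a percentage of all reads of a gene (vertical axis) in each library (blue saline, red immune complex; filled circles library 1, open squares library 2), with Wilson 95% intervals. Slc12a3 ranges from 18.9% to 33.0%, and saline library 1 sits well below its other libraries.

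The difference within the immune complex pair followed the GC content of the transcript. Over 16176 genes with a GC value, the log2 difference of immune complex library 2 minus library 1 had a Pearson correlation of -0.46 with the GC of the longest GENCODE M21 transcript, while the same difference between the saline libraries had one of -0.04. The genes share libraries and are not independent replicates. The median difference was 0.37 in the lowest GC quintile and -0.40 in the highest. Among the 10 genes the correlation was -0.72: Cul3, with 38.5% GC, differed by 0.67 and Kcnj16, with 43.2%, by 0.53, whereas Wnk4, with 59.0%, differed by -0.56. Slc12a3, with 53.7%, differed by -0.83 and Pvalb, with 49.3%, by -0.94. With the GC trend of each library removed, the difference was 0.26 for Cul3, 0.24 for Kcnj16 and -0.11 for Wnk4, and it was -0.62 for Slc12a3 and -0.97 for Pvalb. Of 1779 genes within 1 percentage point of Pvalb's GC content, 3.32% had a lower difference than Pvalb, and of 1726 such genes for Slc12a3 8.52% had. With the trend removed, 0 genes of all tested and 0 of the 10 were called. The log2 fold changes were then -0.03 for Slc12a3, -0.03 for Pvalb, 0.02 for Cul3, 0.04 for Kcnj16 and 0.30 for Wnk1. The immune complex difference also had a Pearson correlation of 0.28 with the log2 length of the transcript, against -0.08 for the saline difference. No trend with length was removed. Pvalb had the shortest transcript of the 10 genes, 977 bases, and the part of length in its difference was not tested.

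**Figure D4:**
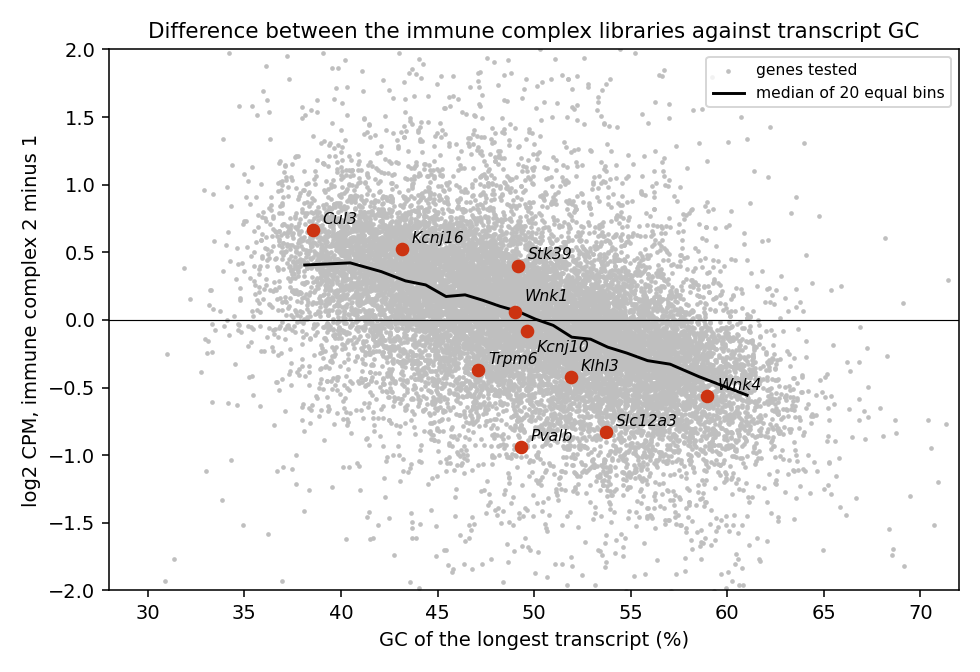
Log2 CPM of immune complex library 2 minus library 1 (vertical axis) against GC of the longest transcript in percent (horizontal axis) for 16176 genes (grey, 123 of them outside the axes), the median of equal bins (black line) and the 10 genes (red). Cul3, Kcnj16 and Wnk4 lie near the falling line, and Pvalb, Slc12a3 and Trpm6 lie below it.

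The neighbouring segments also differed within the immune complex pair. Of 10 other markers of the distal convoluted and connecting tubule, 8 were higher in immune complex library 1 than in library 2 (median difference of library 2 minus 1, -0.41). Of 7 markers of the thick ascending limb, the segment just upstream, 0 were (median 0.38). Library 1 was also the higher one for 7 of 8 principal cell markers (median -0.46) and 6 of 7 intercalated cell markers (-0.43). It was higher for 5 of 8 proximal tubule markers (-0.44). Of all genes tested, 16.8% had library 1 above and library 2 below both saline libraries, and 16.6% the reverse. What lies behind the differences between these lists was not tested. With the GC trend removed the median differences were -0.33 for the distal convoluted and connecting tubule markers and 0.44 for the thick ascending limb. They were -0.20 for principal cell, -0.37 for intercalated cell and -0.34 for proximal tubule markers. S100g, the connecting tubule's calcium carrier, stood at 388.7, 396.6, 474.6 and 225.2 CPM in saline 1, saline 2, immune complex 1 and immune complex 2. Slc12a1, the loop-diuretic target of the thick ascending limb, stood at 1736, 1578, 1004 and 1872 CPM. The ratio of Slc12a1 to Slc12a3 on the RPKM scale was 2.36 and 2.30 in saline, 1.28 in immune complex library 1 and 3.88 in library 2.

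Between the groups, the distal convoluted and connecting tubule markers had 6 higher and 4 lower estimates, with 2 not overlapping in each direction (of all genes tested 15.4% were higher and 14.6% lower in this way) and a median log2 fold change of 0.02. That median is near 0. It changed sign with library totals (-0.04), with the replicate block (-0.01) and when saline library 2 was left out (-0.09). It was -0.22 when immune complex library 1 was left out and 0.23 when library 2 was. Calb1, the calcium-binding calbindin, had 389.4 and 282.0 CPM after saline, against 431.0 and 412.8 CPM after immune complex (log2 fold change 0.33 ± 0.21). Tfap2b, a transcription factor of distal segments, stood at 73.4 and 58.2 CPM against 40.1 and 56.1 CPM (-0.45 ± 0.23), and Sall3 at 6.64 and 6.20 CPM against 5.47 and 3.97 CPM (-0.44 ± 0.28). No gene of this list was called.

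The wider WNK and SPAK pathway held 21 genes, all tested, of which 0 were called, 8 had higher and 13 lower estimates, and the median log2 fold change was -0.05. Groups did not overlap for 1 higher and 3 lower genes, where 30.0% of all genes tested did not. The median turned to 0.04 when immune complex library 1 was left out and moved to -0.13 when library 2 was. Sgk1, the aldosterone-induced kinase, had 278.8 and 165.9 CPM after saline, against 138.2 and 149.2 CPM after immune complex, a log2 fold change of -0.63 ± 0.27 (unadjusted p = 0.053), with saline library 1 standing apart. Tsc22d4 stood at 75.5 and 57.4 CPM against 53.1 and 48.0 CPM (-0.39 ± 0.20). Nr3c2, the mineralocorticoid receptor, stood at 28.1 and 26.8 CPM against 24.6 and 25.6 CPM (-0.13 ± 0.17). Nedd4l, a ubiquitin ligase that acts on the epithelial sodium channel and the cotransporter, stood at 215.1 and 277.1 CPM against 298.9 and 310.6 CPM (0.31 ± 0.20). Of its reads 59.8% to 73.4% were in introns. On the RPKM scale, which uses exon reads, Nedd4l stood at 10.4 and 10.8 against 9.02 and 12.5, so there the groups overlapped. Oxsr1, the kinase closest to SPAK, stood at 18.0 and 14.0 CPM against 10.5 and 17.1 CPM, and on the RPKM scale it had 0.239 to 0.348 of the level of Stk39. The other WNK kinases were far lower per length: Wnk2 stood at 0.00824 to 0.0137 of the RPKM of Wnk4, and Wnk3 at 0.00017 to 0.00124 of it.

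Of the 8 other SLC12 cotransporter genes, 1 had a higher and 7 a lower estimate, with a median log2 fold change of -0.29 and 0 called. The median was -0.15 when saline library 1 was left out, and -0.41 and -0.44 when immune complex libraries 1 and 2 were. Slc12a5 had 4.62 and 6.58 CPM after saline, against 3.50 and 1.84 CPM after immune complex (-1.07 ± 0.40), and Slc12a8 at 2.12 and 1.09 CPM against 0.896 and 0.614 CPM (-1.07 ± 0.49). Both had few reads. Slc12a1 had a log2 fold change of -0.20 ± 0.30.

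The magnesium handling list had 13 of 14 genes tested, 6 with higher and 7 with lower estimates, a median of -0.11 and 0 called. Leaving out saline library 1 turned the median to 0.04, and leaving out immune complex libraries 1 and 2 moved it to -0.06 and -0.02. Kcna1, a potassium channel linked to magnesium wasting, had 1 read in saline library 1 and 0 in the other libraries. Cldn19, a tight junction gene of the thick ascending limb, had 74.2 and 57.4 CPM after saline, against 36.8 and 43.1 CPM after immune complex (-0.72 ± 0.20, adjusted p = 0.854). Rragd, which encodes a GTPase of the lysosomal mTOR pathway, stood at 58.6 and 57.1 CPM against 68.4 and 73.4 CPM (0.29 ± 0.16). Trpm7, the broadly made relative of Trpm6, was 6.39 to 13.6 times Trpm6 on the RPKM scale.

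Among the 7 genes of basolateral channels and the sodium pump, 1 had a higher and 6 a lower estimate, with a median of -0.07 and 0 called. The median turned to 0.05 when saline library 1 was left out and to 0.04 when immune complex library 1 was, and it moved to -0.19 and -0.18 when their second libraries were. Bsnd, which encodes barttin, had 139.3 and 92.1 CPM after saline, against 74.8 and 64.1 CPM after immune complex (-0.74 ± 0.24, adjusted p = 0.942). Kcnj15 is a relative of Kcnj10 that also pairs with Kcnj16. It had 671.9 and 663.8 CPM after saline, against 836.5 and 1037 CPM after immune complex (0.49 ± 0.19), and was named after its values were seen. Beside these values, the principal cell markers of the same pieces summed to 2320 and 1001 CPM in saline and to 1005 and 658.5 CPM in immune complex kidneys. Thick ascending limb markers summed to 8296 and 7936 CPM in saline and to 5608 and 8504 CPM in immune complex kidneys. Intercalated cell markers summed to 478.4 and 412.7 CPM against 501.3 and 368.8 CPM. The part of any of these cell types in the Bsnd values was not tested.

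**Figure D5:**
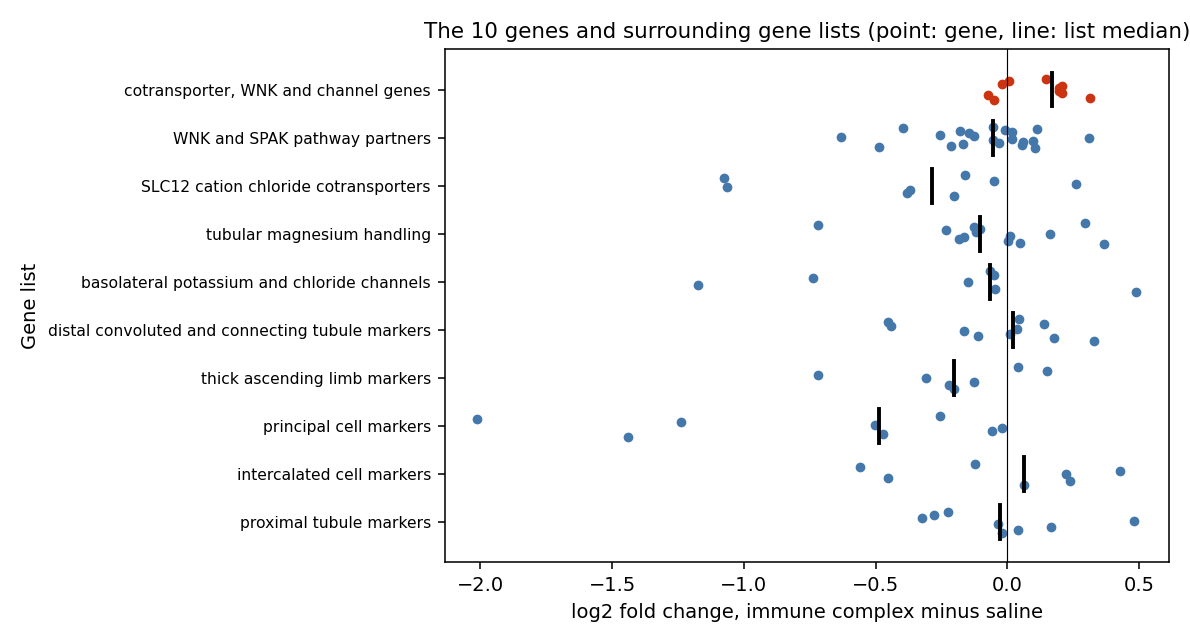
Log2 fold change of immune complex over saline (horizontal axis) for the 10 genes (red) and for the genes of 9 surrounding lists (blue), 1 point per gene tested, with the list median as a black line. The 10 genes lie between -0.07 and 0.31, and the points farthest from 0 are principal cell genes at the left.

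By profile over the 4 libraries, the genes most like Slc12a3 were common cellular genes. The measure was the root mean square distance of centred log2 CPM over 4 libraries, among 11423 genes with a mean of at least 5 CPM. The 5 closest to Slc12a3 were Rpl19 (0.0085), Lamtor4 (0.017), Rpl37 (0.017), Mvb12a (0.019) and Rnf126 (0.020). Pvalb lay at 0.044, and 0.587% of the genes were closer, while Wnk4 lay at 0.11 with 4.87% closer and Cul3 at 0.55 with 90.5% closer. The 5 closest to Pvalb were Ccdc12, Ndufs5, Mrpl34, Cntrob and Sars2, at 0.0030 to 0.023. All these distances use total gene reads, intron reads included, and the GC trend was not removed from them. GC content was 53.4% to 62.7% for the 5 genes closest to Slc12a3 and 48.4% to 60.1% for the 5 closest to Pvalb. The median over genes tested with a GC value was 49.6%. The part of the GC trend in these distances was not tested. In exon reads, Slc12a3 went from 409.5 CPM in saline library 1 to 375.5 CPM in saline library 2. Pvalb went from 66.8 to 73.7 CPM and Wnk4 from 192.8 to 178.8 CPM. Distances on exon reads were not computed, so the order of likeness holds for total gene reads only. With 4 libraries such distances describe these libraries only.

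The libraries held 19675879 to 22791960 reads assigned to genes, 83.4% to 85.0% of them placed at 1 location. Markers of other tissues in the pieces differed: 8 adipocyte genes summed to 56.6 and 457.4 CPM in saline and to 1439 and 1101 CPM in immune complex kidneys, and 6 urothelial genes to 51.7 and 78.7 CPM against 15.0 and 14.8 CPM. Most of the 51.7 CPM was Psca, with 46.3 CPM in that library, and the other urothelial genes were each lower in saline library 1 than in either immune complex library. Proximal tubule markers summed to 7936 to 9393 CPM and intercalated cell markers to 368.8 to 501.3 CPM. For the counts not overlapping that follow, the share over all genes tested was 30.0% (15.4% higher, 14.6% lower). The urothelial list had 6 lower estimates of 6 (1 not overlapping). Its median log2 fold change of -1.49 was -2.33 when saline library 1 was left out and 0.98 when saline library 2 was. The adipocyte list had 8 higher of 8 (8 not overlapping), and its median of 2.65 was 1.66 and 8.20 in the same settings. The principal cell list had 8 lower of 8 (3 not overlapping), with a median of -0.49 that was -0.12 and -0.93 when saline libraries 1 and 2 were left out, and -0.89 and -0.18 when immune complex libraries 1 and 2 were. Aqp2, its water channel, had 1704 and 544.3 CPM after saline, against 528.0 and 301.9 CPM after immune complex. The thick ascending limb list had 2 higher and 5 lower estimates (2 not overlapping, median -0.20), the intercalated cell list 4 and 3 (3 not overlapping, median 0.06) and the proximal tubule list 3 and 5 (2 not overlapping, median -0.03). Their medians rest on single libraries, with 0.02, -0.35 and -0.37 when immune complex library 1 was left out, and -0.48, 0.25 and 0.0086 when library 2 was. The thick ascending limb median was -0.14 when saline library 1 was left out. When saline libraries 1 and 2 were left out, the intercalated median was 0.13 and -0.01, and the proximal median was -0.08 without saline library 1. With library totals the intercalated median was -0.00013. Of the muscle list 4 of 9 genes were tested (1 higher, 3 lower), with a median of -0.46 that was 0.16 on exon reads and -0.21 on unique reads. No gene of these lists was called, and their part in the values above was not tested.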

How the data were processed

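Total RNA of kidney tissue was sequenced on an Illumina platform, per the labels' protocols. STAR 2.5.2b, DESeq2 and GRCm38 appear in the submitters' processing notes with no role stated. Read counter, annotation release and strand setting: not given in the sources used here, so reads of antisense transcripts cannot be told apart. Per the file headers, each library's table gives raw counts of total, unique, exon, intron and exon-exon reads per gene. The authors also deposited RPKM, which was recovered from exon reads for 99.7% of genes and for all 10 genes described (relative tolerance 0.0001). Gene and exon lengths are other values, in bases, per the file headers. The authors' deposited table of their own comparison gives log2 fold changes, standard errors, p-values and adjusted p-values, with counts identical to the library tables; its sign opposes the read ratio for all 80 called genes, so it is coded saline over immune complex.

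Total gene reads were tested with edgeR 4.0.16 in R 4.3.3 (filterByExpr, TMM scaling, glmQLFit, glmQLFTest, 2 residual and 4.61 prior degrees of freedom), 2 libraries against 2, without a block, and adjusted over all 16334 genes. Standard errors are the fold change over the square root of F, and 95% intervals use the same degrees of freedom. DESeq2 was version 1.42.0. Log2 CPM has a prior count of 2. The GC trend of each library was a lowess (span 0.3) of its log2 CPM, less the mean of the 4 libraries, on GC, and was added after the data were seen. The fit was tested on simulated data. The 10 genes and the 12 gene lists were chosen with earlier results of these data known. Named genes are the 10, the 2 with the lowest p of each list (printed for the pathway lists and the distal tubule markers; lists of other cell types are given as totals), the 5 most alike in profile to Slc12a3 and to Pvalb, and a fixed few; S100g, Kcnj15, Myh1, Myh4, Kcna1, Wnk2, Wnk3 and Trpm7 were named after their values were seen. The values of 1 list gene are not reported here.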

Additional observations from a re-analysis of the deposited data

How the results depend on the processing

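Under all 14 alternatives 0 of the 10 genes were called. For all genes, 0 were called with DESeq2 size factors in edgeR, with library totals, with exon reads and with the GC trend removed (with or without the block), against 93 with DESeq2, 2 without a filter and 1 with unique reads; single libraries left out gave 0 to 279 calls, with the lone library assumed to vary like the other group. Of the 103 genes tested in the lists, 4 were called by DESeq2 (Fxyd4, Elf5 and Psca among them), 1 without a filter (Psca), and 0 to 13 with single libraries left out. The replicate number as a block gave 55 genes, 5 of them in the lists (Cidec, Fabp4, Lep, Plin4 and Psca); the labels do not say that numbers pair samples, and the saline 1 minus 2 and immune complex 1 minus 2 differences correlated at -0.13 over genes, so a block crossing the numbers was added after the data were seen, with 160 calls, 8 of them in the lists. The cause of these differences was not tested.

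Signs turned for estimates near 0: Kcnj10 was -0.058 with library totals, -0.0048 with DESeq2 and -0.00078 without a filter, Pvalb was 0.0016 with exon reads, and Wnk4 was 0.042 with the GC trend removed and 0.041 with the block as well. With single libraries left out the log2 fold changes ranged from -0.52 to 0.30 for Slc12a3, -0.38 to 0.18 for Wnk4, -0.017 to 0.40 for Klhl3, -0.18 to 0.49 for Cul3, -0.018 to 0.38 for Stk39, -0.57 to 0.38 for Pvalb, -0.087 to 0.089 for Kcnj10 and -0.14 to 0.39 for Kcnj16. Wnk1 and Trpm6 kept their direction under all 14. Library totals moved the median of all genes by -0.06, and no scaling moved it by more than that.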
